A study of Mus musculus with 6 samples.

Results

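The unfolded protein response is the set of genes that a cell uses when proteins fail to fold in the endoplasmic reticulum. It was followed here through 33 genes chosen by symbol: its sensors, chaperones and degradation factors, and targets of the transcription factor ATF4. Each of the 33 symbols matched 1 of the 27502 genes in the tables, and 32 were expressed highly enough to be tested among 11869 genes.

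The cells were vascular smooth muscle cells cultured from mouse aorta, the contractile cells of the vessel wall. Short interfering RNA against Ezh2 was used for 48 hours in 3 samples (siEzh2), and 3 control samples of the same time served for comparison. EZH2 is the chief enzyme of Polycomb repressive complex 2 and writes the silencing mark H3K27me3 on histones. The sources used here do not give the strain, age or passage of the cells, nor what the control cells received. Separate cultures or animals are not stated for the samples within a group, so the p-values reflect the spread among these 6 samples, which may be only technical. Ezh2 itself had 1.20, 1.09 and 1.05 FPKM (fragments per kilobase of exon and per unit of library size) in siEzh2 samples, against 3.41, 3.59 and 3.88 FPKM in controls, and so was 3.26-fold lower (adjusted p = 5.15e-05, limma with Benjamini-Hochberg adjustment).

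The response has 3 sensors in the membrane of the endoplasmic reticulum, and each starts an arm of its own. PERK phosphorylates the translation factor eIF2alpha, which slows protein synthesis but lets Atf4 be translated, and ATF4 switches on amino acid, redox and cell death genes. ATF6 moves to the Golgi, is cut there by 2 proteases and enters the nucleus, where it drives chaperone genes. IRE1 cuts the Xbp1 message into the form that encodes active XBP1, which drives co-chaperone and degradation genes. ATF6 and XBP1 share many targets, so the assignment of a gene to 1 arm is a convention. Gene-level RNA shows neither the splicing of Xbp1, nor the translation of Atf4, nor the cutting of ATF6.

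The arms did not move as 1 block. In the PERK-ATF4 arm 5 of 9 genes rose and 0 fell, led by Trib3, Ddit3 and Ppp1r15a. In the ATF6 arm 6 of 13 genes fell and 1 rose, led by Manf, Creld2 and Hsp90b1, while Hspa5, the classical marker gene of the response, did not pass the test. In the IRE1-XBP1 arm 1 of 7 tested genes rose (Edem1) and 3 fell (Dnajc3, Derl1 and Xbp1). Of the 3 sensor genes Ern1 rose, and Atf6 and Eif2ak3 fell. The share called was 55.6% in the PERK-ATF4 arm, 53.8% in the ATF6 arm and 57.1% in the IRE1-XBP1 arm. Among all tested genes it was 46.9%, with 24.1% higher and 22.7% lower. The counts of genes by arm changed when any 1 sample was left out. This gave 3 to 4 PERK-ATF4 genes higher and 0 lower, and 3 to 5 ATF6 genes lower and 0 to 1 higher. In the IRE1-XBP1 arm it gave 2 to 3 genes lower and 1 to 2 higher. Over all genes 2309 to 2516 were then higher and 2156 to 2345 lower, against 2866 and 2695 with all 6 samples.

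Over all arms siEzh2 samples were higher in 8 of the 32 tested genes and lower in 11, so that 59.4% were called, against 46.9% of all tested genes. Across all tested genes 24.1% were called higher and 22.7% lower, so a share of called genes of this size is not by itself a mark of the response. The median log2 fold change on log2(FPKM + 1) was −0.04 over the 32 genes and 0.01 over all tested genes. Sizes were modest, with a median absolute log2 fold change of 0.20 among called genes of the response and 0.29 among all called genes. All siEzh2 samples lay above all controls for 11 genes and below them for 14 genes, and the groups overlapped for 7. Among all tested genes the groups did not overlap for 58.1%, with siEzh2 samples above in 30.0% and below in 28.1%. The difference between arms was described and not tested.

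**Figure D1:**
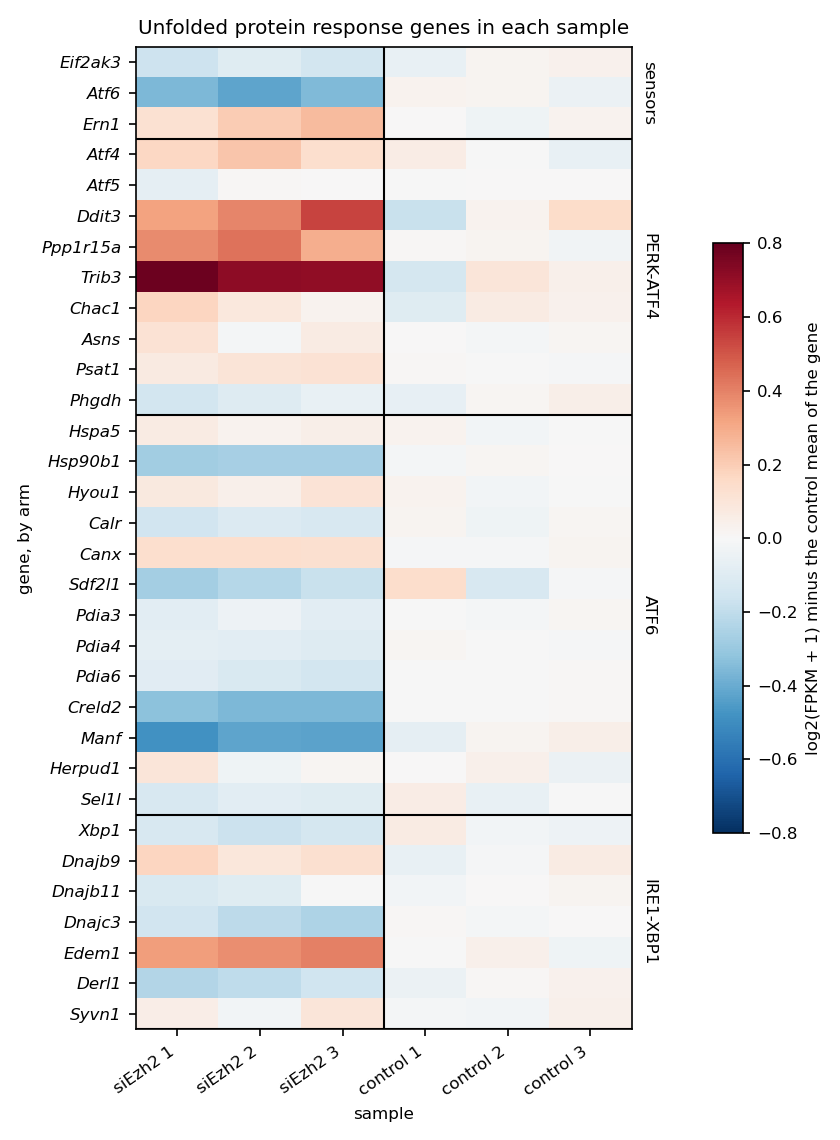
Each row is 1 of the 32 tested genes, grouped by arm, and each column 1 sample, with siEzh2 samples on the left and controls on the right. Colour is log2(FPKM + 1) minus the mean of that gene in controls: Trib3, Ddit3, Ppp1r15a and Edem1 were raised in all 3 siEzh2 samples, and Manf, Creld2, Atf6 and Hsp90b1 were lowered in all 3.

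Averaged over the 9 genes of the PERK-ATF4 arm, the siEzh2 samples lay 0.20, 0.20 and 0.20 above the control mean on the log2 scale, and the 3 controls at −0.04, 0.02 and 0.02. Over the 13 genes of the ATF6 arm the siEzh2 samples lay at −0.12, −0.12 and −0.11, and the controls at 0.01, −0.02 and 0.00. The 7 tested genes of the IRE1-XBP1 arm averaged −0.01, −0.04 and 0.01 in siEzh2 samples and −0.01, 0.00 and 0.01 in controls. The medians over the genes of an arm were 0.16, 0.10 and 0.12 in siEzh2 samples for the PERK-ATF4 arm, −0.09, −0.09 and −0.10 for the ATF6 arm, and −0.12, −0.10 and −0.01 for the IRE1-XBP1 arm, against −0.02 to 0.02 in controls. The mean of the PERK-ATF4 arm lies above its medians, with Trib3, Ddit3 and Ppp1r15a well above the other genes.

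Some properties of the samples moved with the groups. Recovered library sizes were 16080005 to 17553743 reads in siEzh2 samples and 18248440 to 18753124 in controls. Summed FPKM of 8 smooth muscle markers was 607 to 646 in siEzh2 samples and 872 to 897 in controls, and 5 of the 6 tested markers fell. Of these, Myl9, Lmod1 and Acta2 fell by 1.22, 0.69 and 0.38 on the log2 scale (adjusted p = 3.57e-05, 8.51e-05 and 0.000707). Acta2 was the most abundant (537 ± 17.8 FPKM in siEzh2 and 699 ± 14.8 in controls, SD, n = 3 each), while Tagln was below the 1 FPKM filter in both groups and shares 67.9% of its exon bases with an antisense gene. Summed markers of endothelial cells were 3.49 to 3.84 FPKM in siEzh2 and 2.19 to 2.42 in controls, of macrophages and leukocytes 14.1 to 15.1 and 17.2 to 20.5, and of fibroblasts and adventitial cells 350.0 to 365 and 335 to 357. The endothelial marker Kdr rose by 0.27. The leukocyte markers Cd14 and Cd68 rose by 0.28 and 0.22 on the log2 scale, and Lyz2 and Csf1r fell by 1.03 and 0.89. The calls of Cd14 and Cd68 were lost in 6 and 8 of 12 alternatives, both without any 1 of siEzh2 sample 3 or control samples 2 and 3, Cd14 also without siEzh2 sample 1 and Cd68 also without siEzh2 sample 2 (adjusted p up to 0.104 and 0.108). The fibroblast marker Pdgfra rose by 0.38, Dpt and Lum fell by 1.20 and 0.84, and Ly6a and Dcn did not pass (log2 fold changes 0.11 and 0.09), although Ly6a passed in 3 alternatives, among them without control sample 2, and Dcn in 1, without siEzh2 sample 3. The 13 mitochondrially encoded genes summed to 15861 to 16976 FPKM in siEzh2 and 19081 to 19794 in controls, and 8 of them fell. No marker of any list was at 0 in all samples. Their part in the results was not tested, and in bulk RNA fewer cells of a type and less RNA per cell cannot be told apart.

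The sensor genes were all expressed at a similar, low level. Atf6 (chromosome 1 from 170704674 to 170867771, minus strand, mm10) had 5.50, 5.21 and 5.53 FPKM in siEzh2 samples, against 7.50, 7.46 and 7.06 FPKM in controls. Each siEzh2 sample was below each control. The means were 5.41 ± 0.178 and 7.34 ± 0.241 FPKM (SD, n = 3 each), 1.36-fold lower in siEzh2, and the log2 fold change of −0.38 (SE 0.040, adjusted p = 0.000752) kept its call in all 12 alternatives run. Ern1, which encodes IRE1, had 5.98, 6.38 and 6.66 FPKM in siEzh2 samples and 5.45, 5.28 and 5.54 in controls. It rose by 0.19 on the log2 scale (adjusted p = 0.015), a call lost without control sample 2 (adjusted p = 0.052). Eif2ak3, which encodes PERK, had 5.97, 6.33 and 6.07 FPKM in siEzh2 samples and 6.51, 6.93 and 7.03 in controls. It fell by 0.13 on the log2 scale (adjusted p = 0.0384), but the call was lost in 7 of 12 alternatives, including without any 1 of siEzh2 samples 1, 2 and 3 or control samples 2 and 3 (adjusted p = 0.0508 to 0.114). A predicted antisense gene overlaps 8.05% of the exon bases of Eif2ak3, and since it is not given whether the counting used the strand, reads of such a pair cannot be told apart.

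The transcription factors of the PERK-ATF4 arm rose with the exception of Atf5. Atf4 (chromosome 15 from 80255184 to 80257541, plus strand), the factor whose translation follows eIF2alpha phosphorylation, had 58.5, 60.8 and 57.2 FPKM in siEzh2 samples and 54.4, 52.1 and 50 in controls. The groups did not overlap and the message rose by 0.17 on the log2 scale (adjusted p = 0.0226). This call was lost without any 1 of siEzh2 samples 1 and 2 or control samples 2 and 3 (adjusted p = 0.052 to 0.0698). Atf5, a related factor that is also translated under stress, had 57.7 ± 1.86 FPKM in siEzh2 and 58.4 ± 0.247 FPKM in controls (SD, n = 3 each, log2 fold change −0.02, 95% confidence interval −0.11 to 0.07, adjusted p = 0.708). Ddit3 (chromosome 10 from 127290774 to 127296288, plus strand), which encodes CHOP, a factor of the death branch of the response, had 15.0, 15.8 and 17.6 FPKM in siEzh2 samples, against 10.4, 12.1 and 13.2 FPKM in controls. The lowest siEzh2 sample was above the highest control, and Ddit3 rose 1.36-fold (log2 fold change 0.42, SE 0.096, adjusted p = 0.0136), with the call kept in all 12 alternatives. Antisense genes overlap 4.73% of its exon bases, and a second annotated gene of the same symbol overlaps 6.13%.

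Of the 3 downstream targets in the feedback and death group, Trib3 and Ppp1r15a rose and Chac1 did not pass. Trib3 (chromosome 2 from 152337422 to 152344032, minus strand) encodes a pseudokinase that restrains AKT and ATF4 itself. It had 4.33, 4.07 and 4.06 FPKM in siEzh2 samples and 1.80, 2.31 and 2.18 FPKM in controls. The means were 4.15 ± 0.154 and 2.10 ± 0.262 FPKM (SD, n = 3 each), a ratio of 1.98, on 450 reads over the siEzh2 samples and 248 over the controls, the lowest read total of the 32 genes. Its log2 fold change of 0.74 (SE 0.068, adjusted p = 0.000457) was the largest of the 32 and ranked 370 by size among the 11869 tested genes. Ppp1r15a (chromosome 7 from 45522916 to 45526268, minus strand) encodes GADD34, the stress-induced subunit that directs a phosphatase to eIF2alpha and so ends the PERK signal. It had 15.7, 16.4 and 14.7 FPKM in siEzh2 samples and 11.9, 12 and 11.6 in controls. It rose 1.32-fold with no overlap between groups (log2 fold change 0.37, SE 0.046, adjusted p = 0.00139), and like Trib3 kept its call in all 12 alternatives. Chac1, an enzyme that breaks down glutathione and is a well-known ATF4 target, had 6.57 ± 0.392 FPKM in siEzh2 and 6.09 ± 0.419 FPKM in controls (SD, n = 3 each, log2 fold change 0.09, 95% confidence interval −0.05 to 0.24, adjusted p = 0.249).

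The amino acid synthesis targets of ATF4 moved little. Asns, asparagine synthetase, had 17.8, 16.1 and 17.1 FPKM in siEzh2 samples and 16.4, 16.1 and 16.5 in controls (log2 fold change 0.06, 95% confidence interval −0.05 to 0.16, adjusted p = 0.327). Of the serine synthesis enzymes, Psat1 had 35.9, 36.6 and 37.1 FPKM in siEzh2 samples and 34.4, 34.0 and 33.8 in controls. Its rise of 0.10 on the log2 scale was just inside the threshold (adjusted p = 0.0467) and was lost in 8 of 12 alternatives, among them each of the 6 that left out a sample (adjusted p = 0.0593 to 0.123). Phgdh, the first enzyme of the same pathway, had 88.7 ± 2.75 FPKM in siEzh2 and 95.3 ± 3.81 FPKM in controls (SD, n = 3 each, a log2 fold change of −0.10 with adjusted p = 0.106), with overlapping groups. Phgdh passed, as lower, with trend and robust settings on (adjusted p = 0.0473) and on recovered reads with limma-voom (0.0105).

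Each arm acts on its targets through short promoter elements, which were looked for in 300 bases of RefSeq promoter, from 250 before to 50 after the start (GRCm38.p6, the assembly of mm10), on both strands. The scan covered 31 promoters of 29 of the 33 genes, and those of Atf6, Derl1, Hyou1 and Manf were not analysed here. The element of ATF4 and its C/EBP partners (CARE, TGATGNAA) stood in 4 of the 29 genes (13.8%). It stood in 3.97% of 32851 promoters and in 2.56% of the tested genes scanned. The 3 matches within the PERK-ATF4 arm are shown because they stand in 1 gene that rose and 2 that did not pass. Fixed bases of the element are in capitals and each window is written along the element, 5′ to 3′.

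Trib3 CARE at chr2:152344033-152344052, plus strand: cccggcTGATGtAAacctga
Chac1 CARE at chr2:119351043-119351062, minus strand: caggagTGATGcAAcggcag
Asns CARE at chr6:7693219-7693238, minus strand: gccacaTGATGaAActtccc

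The match of Trib3 begins 15 bases after the RefSeq start, and those of Chac1 and Asns begin 193 and 23 bases before it. Atf4, Ddit3, Ppp1r15a and Psat1, the other genes of the arm that rose, had no CARE match in this window. A match is a run of letters, and nothing was measured here of what binds it.

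The ATF6 arm holds the chaperones, the proteins that bind and fold clients in the endoplasmic reticulum, together with disulfide isomerases and secreted stress factors. Its best known promoter element is the endoplasmic reticulum stress response element (ERSE, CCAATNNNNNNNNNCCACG), to which NF-Y binds at CCAAT and ATF6 or XBP1 at CCACG. ERSE stood in 9 of the 29 genes with a promoter (31.0%) but in 39 of 32851 promoters (0.119%) and in 0.15% of the tested genes scanned. By arm it stood in 6 of 11 genes of the ATF6 arm, 3 of 7 of the IRE1-XBP1 arm, 0 of 9 of the PERK-ATF4 arm and 0 of 2 sensors. All 10 matches are shown, since genes with the same element had different results in siEzh2 samples. The fixed bases CCAAT and CCACG are in capitals.

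Hspa5 ERSE at chr2:34772019-34772049, plus strand: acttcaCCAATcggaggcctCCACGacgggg
Hsp90b1 ERSE, far copy, at chr10:86705632-86705662, minus strand: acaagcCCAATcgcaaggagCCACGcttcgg
Hsp90b1 ERSE, near copy, at chr10:86705527-86705557, plus strand: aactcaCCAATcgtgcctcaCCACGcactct
Calr ERSE at chr8:84847069-84847099, plus strand: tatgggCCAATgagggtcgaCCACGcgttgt
Canx ERSE at chr11:50325794-50325824, minus strand: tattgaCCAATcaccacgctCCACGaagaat
Pdia6 ERSE at chr12:17266485-17266515, plus strand: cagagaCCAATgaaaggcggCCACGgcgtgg
Creld2 ERSE at chr15:88819514-88819544, minus strand: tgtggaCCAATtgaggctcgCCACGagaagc
Dnajc3 ERSE at chr14:118937821-118937851, plus strand: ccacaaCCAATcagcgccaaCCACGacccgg
Derl3 ERSE at chr10:75893236-75893266, minus strand: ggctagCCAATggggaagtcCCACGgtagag
Syvn1 ERSE at chr19:6046526-6046556, plus strand: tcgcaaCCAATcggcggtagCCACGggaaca

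Of the 8 tested genes with an ERSE, Hsp90b1, Calr, Pdia6, Creld2 and Dnajc3 fell, Canx rose, and Hspa5 and Syvn1 did not pass. These 8 are among 13 tested genes whose scanned promoter held the element, and of the other 5 genes 1 rose, 0 fell and 4 did not pass. Among all tested genes 22.7% were called lower and 24.1% higher. The calls of Calr, Pdia6 and Canx were kept in 6, 5 and 9 of 12 alternatives. Whether the element goes with a direction was not tested. The second form of the element (ERSE-II, ATTGGNCCACG) shares CCACG with ERSE and holds CCAAT on its other strand. It stood in Dnajb11 and Herpud1 (6.90% of the 29 genes, 0.0365% of all promoters, 0.104% of the tested genes scanned). Neither gene passed the test, and no scanned promoter of the 29 genes held both forms. Herpud1 also held a CARE. The XBP1 element (UPRE, TGACGTGG), whose other strand can overlap CCACG, stood in 0 of the 29 genes and in 0.676% of all promoters.

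Dnajb11 ERSE-II at chr16:22857846-22857868, plus strand: gcggcgATTGGcCCACGcctggc
Herpud1 ERSE-II at chr8:94386371-94386393, plus strand: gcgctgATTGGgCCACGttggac

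**Figure D2:**
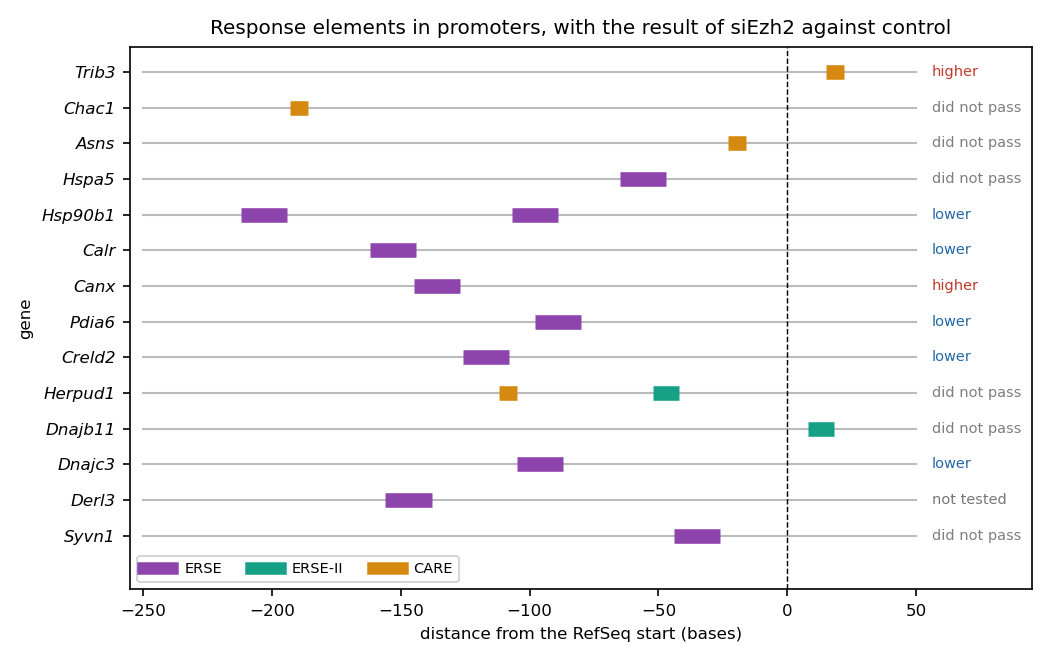
Each line is the promoter window of 1 gene with a match, from 250 bases before to 50 bases after the RefSeq start on the horizontal axis, with ERSE, ERSE-II and CARE as coloured blocks and the result of siEzh2 against control at the right. The 10 ERSE matches lie before the start in 9 genes, and genes with an ERSE are found among those that fell, rose or did not pass.

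Hspa5, Hsp90b1 and Calr show how unevenly the chaperones moved. Hspa5 (chromosome 2 from 34771970 to 34777547, plus strand) encodes BiP, the HSP70 of the endoplasmic reticulum, which holds all 3 sensors inactive until misfolded proteins draw it away. It had 243, 237 and 240.0 FPKM in siEzh2 samples, against 237, 229 and 232 FPKM in controls. The groups lay close together, with siEzh2 samples just above, and the log2 fold change of 0.05 (95% confidence interval −0.03 to 0.13, adjusted p = 0.301) did not pass in any of the 12 alternatives. Hsp90b1 (chromosome 10 from 86690209 to 86705509, minus strand), the HSP90 of the same compartment and the gene with 2 copies of ERSE, had 118, 119 and 119 FPKM in siEzh2 samples and 142, 144 and 143 in controls. It fell by 0.27 on the log2 scale (SE 0.031, adjusted p = 0.000971), 1.21-fold, and the call held in all 12 alternatives. An antisense gene overlaps 10.3% of its exon bases and other genes on its own strand 5.38%.

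The lectin chaperones calreticulin and calnexin, which bind the same sugar on new glycoproteins, moved in opposite directions. Calr, the gene of the 33 with the highest FPKM, had 527, 543 and 537 FPKM in siEzh2 samples and 595, 573 and 592 in controls. Canx had 156, 156 and 155 FPKM in siEzh2 samples and 141, 141 and 145 in controls. In neither gene did the groups overlap, and both changes were 0.13 in size on the log2 scale. Calr fell with adjusted p = 0.0228, and Canx rose with adjusted p = 0.0164. The call of Calr was lost in 6 of 12 alternatives, with adjusted p = 0.242 after quantile normalization and 0.053 to 0.0708 without siEzh2 samples 1 or 3 or control samples 1 or 3. That of Canx was lost in 3, without control samples 1 or 2 (adjusted p = 0.0511 and 0.0568) and with the replicate block (0.0518). Hyou1, the exchange factor of BiP, had 30.2 ± 0.703 FPKM in siEzh2 and 28.6 ± 0.517 FPKM in controls (SD, n = 3 each, adjusted p = 0.121). Hyou1 passed, as higher, on recovered reads with limma-voom (adjusted p = 0.0352). Sdf2l1, a partner of the co-chaperone ERdj3, had 33.0, 34.0 and 35.3 FPKM in siEzh2 samples and 44.2, 36.5 and 39.7 in controls, with control sample 1 well above the others. It fell by 0.23 on the log2 scale (adjusted p = 0.0434), a call lost in 8 of 12 alternatives, including without any 1 of the 3 siEzh2 samples or control samples 1 and 3 (adjusted p = 0.0684 to 0.114).

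All 3 disulfide isomerases were lower in every siEzh2 sample than in any control, by small amounts, and 1 passed. Such a separation, with siEzh2 samples below, was found in 28.1% of all tested genes. Pdia6 had 149, 146 and 144 FPKM in siEzh2 samples and 159, 159 and 159.7 in controls, and fell by 0.12 on the log2 scale (adjusted p = 0.0252). This was lost in 7 of 12 alternatives, including without siEzh2 samples 2 or 3 or any 1 control (adjusted p = 0.0631 to 0.0742). Pdia4 had 109 ± 0.976 FPKM in siEzh2 and 116 ± 1.24 FPKM in controls (log2 fold change −0.09, adjusted p = 0.0609), and Pdia3 had 308 ± 5.03 FPKM in siEzh2 and 323 ± 3.67 FPKM in controls (−0.07, adjusted p = 0.123, SD, n = 3 each). Both passed, as lower, on recovered reads with limma-voom (adjusted p = 0.0100 and 0.00629). They also passed, as lower, with trend and robust settings on (0.0113 and 0.0249), and Pdia3 after quantile normalization (0.0407).

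Within the ATF6 arm the log2 fold changes of the secreted stress factors Manf and Creld2 were the lowest. Manf (chromosome 9 from 106838312 to 106891979, minus strand) encodes a small protein of the endoplasmic reticulum that is released under stress and protects cells. It had 20.5, 21.4 and 21.3 FPKM in siEzh2 samples, against 27.6, 29.5 and 30.0 FPKM in controls. The means were 21.1 ± 0.505 and 29.0 ± 1.28 FPKM (SD, n = 3 each), 1.38-fold lower in siEzh2 (log2 fold change −0.44, SE 0.044, adjusted p = 0.000604), the largest fall of the 32 genes. Antisense genes overlap 8.85% of its exon bases. Creld2 (chromosome 15 from 88819646 to 88826683, plus strand), a secreted protein of the same kind with an ERSE in its promoter, had 36.6, 35.7 and 35.7 FPKM in siEzh2 samples and 46.1, 46.0 and 46.4 in controls. The spread within each group was far smaller than the gap, and Creld2 fell by 0.35 on the log2 scale (SE 0.032, adjusted p = 0.000422), 1.28-fold. Both calls held in all 12 alternatives. The degradation genes of the arm did not pass: Herpud1, which organizes the HRD1 ligase, had 18.3 ± 0.921 FPKM in siEzh2 and 18.0 ± 0.591 FPKM in controls (adjusted p = 0.672), and Sel1l, the partner of that ligase, had 27.5 ± 0.416 and 29.6 ± 1.21 FPKM (adjusted p = 0.0812, SD, n = 3 each). Sel1l passed, as lower, with trend and robust settings on (adjusted p = 0.0459) and on recovered reads with limma-voom (0.00611).

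**Figure D3:**
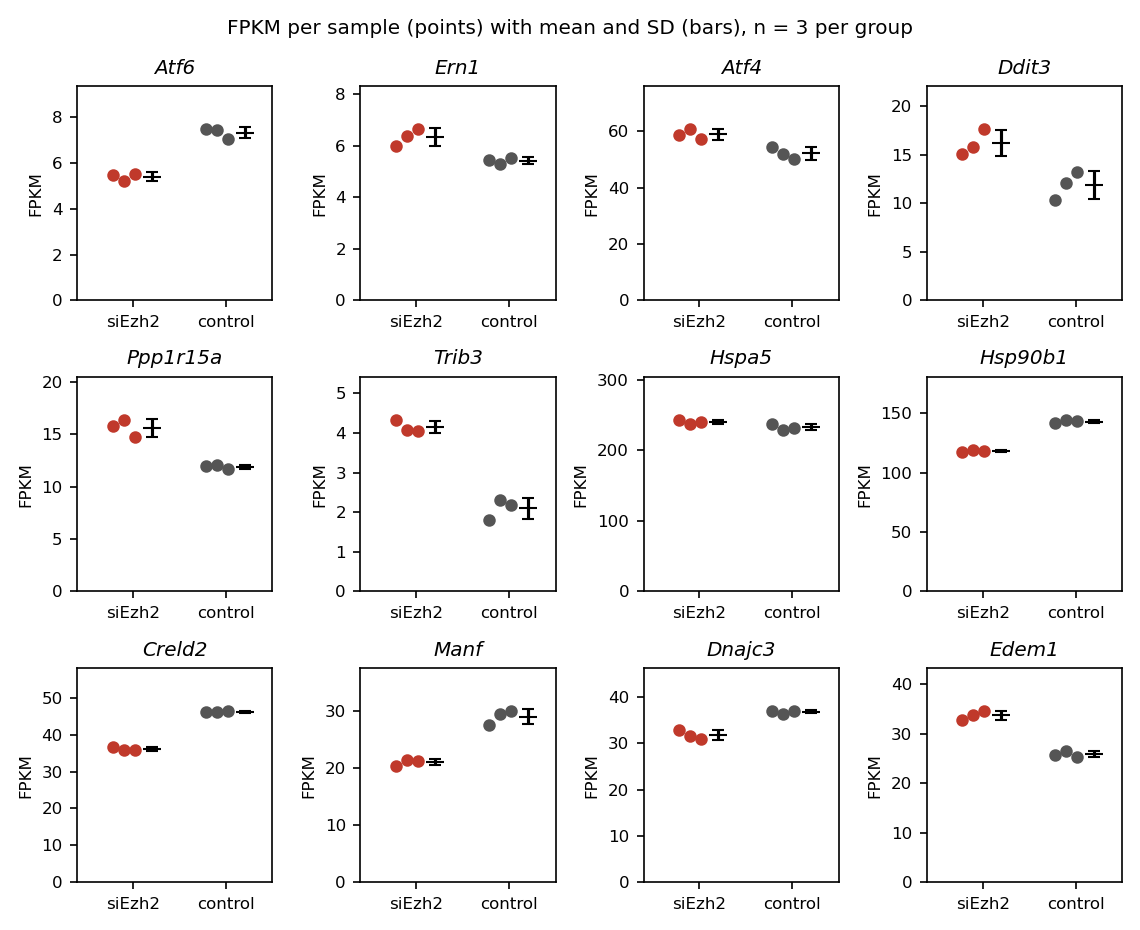
Each panel shows FPKM on an axis from 0 for 1 gene, with 1 point per sample, siEzh2 on the left and control on the right, and the mean and SD (n = 3) beside the points. The 12 genes were picked from the 32 tested, and the 7 tested genes whose groups overlap are not shown. The groups do not overlap in any of the 12 panels, as in 58.1% of all tested genes. For Hspa5 the groups nearly touch, and for Trib3 the siEzh2 mean is 1.98 times that of controls.

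Xbp1, the transcription factor of the IRE1-XBP1 arm (chromosome 11 from 5520659 to 5525893, plus strand), had 37.1, 36.0 and 36.8 FPKM in siEzh2 samples, against 42.6, 40.1 and 39.4 FPKM in controls. Its total message fell by 0.15 on the log2 scale (adjusted p = 0.0276) with no overlap between groups. The call was lost without any 1 of the 3 siEzh2 samples or control samples 1 and 2 (adjusted p = 0.0517 to 0.0821). Spliced and unspliced forms are 1 value here.

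Of the 3 J-domain co-chaperones, which hand clients to BiP, 1 passed the test. Dnajc3 (chromosome 14 from 118937976 to 118981697, plus strand) encodes p58IPK, a co-chaperone also known as an inhibitor of eIF2alpha kinases, and has an ERSE. It had 33.0, 31.7 and 30.9 FPKM in siEzh2 samples and 37.0, 36.5 and 37.0 in controls. It fell by 0.20 on the log2 scale (SE 0.037, adjusted p = 0.00567), 1.16-fold, with the groups apart. Dnajb9, or ERdj4, had 20.4, 19.2 and 19.7 FPKM in siEzh2 samples and 17.2, 17.9 and 18.9 in controls, and its difference of 0.13 lay just outside the threshold (adjusted p = 0.0601). It passed, as higher, in 3 alternatives (adjusted p = 0.0363 to 0.0438). Dnajb11, or ERdj3, had 48.3 ± 2.07 FPKM in siEzh2 and 50.8 ± 0.86 FPKM in controls (SD, n = 3 each, adjusted p = 0.198), with overlapping groups.

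Of the 3 tested degradation genes of the arm, which help extract misfolded proteins for the proteasome, 1 rose and 1 fell. Edem1 (chromosome 6 from 108828641 to 108859356, plus strand) encodes a mannosidase-like protein that marks misfolded glycoproteins for disposal. It had 32.9, 33.8 and 34.7 FPKM in siEzh2 samples, against 25.8, 26.6 and 25.3 FPKM in controls. It rose 1.30-fold (log2 fold change 0.37, SE 0.038, adjusted p = 0.000681) and no siEzh2 sample reached down to the controls. Derl1 (chromosome 15 from 57869502 to 57892448, minus strand), a membrane protein of the exit channel, had 44.5, 45.4 and 46.8 FPKM in siEzh2 samples and 50.7, 52.9 and 53.8 in controls. It fell by 0.20 on the log2 scale (SE 0.040, adjusted p = 0.00814), 1.15-fold, and like Edem1 and Dnajc3 kept its call in all 12 alternatives. Syvn1, the HRD1 ligase itself, had 17.3 ± 0.735 FPKM in siEzh2 and 16.8 ± 0.427 FPKM in controls (SD, n = 3 each, log2 fold change 0.04, 95% confidence interval −0.06 to 0.15, adjusted p = 0.468). Derl3, which carries an ERSE, was close to the limit of detection at 0.0936, 0.257 and 0.0288 FPKM in siEzh2 samples and 0.0549, 0.0802 and 0.162 in controls, on 13 and 11 reads, and was not tested.

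**Figure D4:**
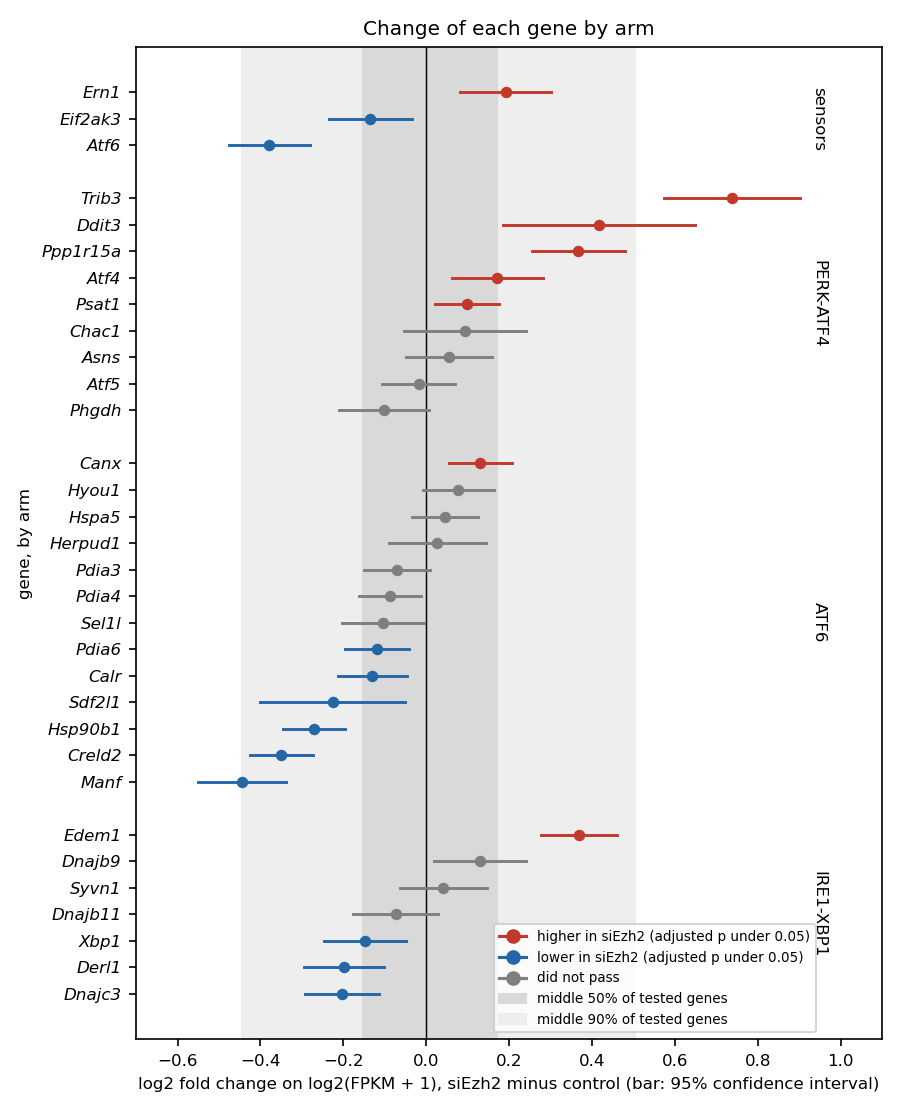
Points are log2 fold changes on log2(FPKM + 1), siEzh2 minus control, with 95% confidence intervals as bars, in order of size within each arm; the inner and outer grey bands show the middle 50% and the 5th to 95th percentile of all tested genes. Trib3 lies clearly beyond the outer band and Manf at its lower edge, and the ATF6 arm reaches from Canx at 0.13 down to Manf at −0.44.

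In all, 10 of the 19 calls held under each of the 12 alternatives: Atf6, Trib3, Ddit3, Ppp1r15a, Hsp90b1, Creld2, Manf, Dnajc3, Edem1 and Derl1. Each of the other 9 calls was lost in at least 1 alternative, as given with the gene.

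The rest of the response was followed through 9 lists of other genes, with 151 genes tested, of which 44 were higher, 41 lower and 66 did not pass (median log2 fold change 0.02, against 0.01 over all tested genes). The lists were chosen with results of these data known, and are described without a test of the list. The share called over the 9 lists was 56.3%, against 46.9% of all tested genes.

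Around the PERK-ATF4 arm more genes were higher than lower. Of 8 genes of eIF2alpha itself, its kinases, its phosphatase subunits and the exchange factor of eIF2, 4 were higher and 0 lower (median 0.07). The largest was Eif2ak2, the kinase PKR that senses double-stranded RNA, with 16.9 ± 0.393 FPKM in siEzh2 and 11.1 ± 0.194 FPKM in controls (SD, n = 3 each, a log2 fold change of 0.57 with adjusted p = 0.000116). Ppp1r15b, the constitutive partner of Ppp1r15a, rose by 0.22 (adjusted p = 0.0074, with 11.4% antisense overlap of exon bases), and Eif2b1, a subunit of the exchange factor of eIF2, by 0.25 (adjusted p = 0.019, lost without siEzh2 sample 1 or control samples 1 or 3, adjusted p up to 0.06). Of 24 other ATF4-linked genes 10 were higher and 4 lower (median 0.10). Slc7a11, the cystine importer, had 2.74, 2.46 and 2.81 FPKM in siEzh2 samples and 0.322, 0.375 and 0.329 in controls (log2 fold change 1.45, adjusted p = 3.57e-05). Its control mean of 0.342 FPKM was below the 1 FPKM filter, so it entered the test only through the group where it was high. Gdf15, a secreted stress hormone, had 15.8 ± 1.20 FPKM in siEzh2 and 5.82 ± 0.492 FPKM in controls (1.30, adjusted p = 9.86e-05). Nupr1, a stress-induced chromatin protein, fell, with 17.6 ± 1.14 FPKM in siEzh2 and 29.9 ± 2.18 FPKM in controls (−0.73, adjusted p = 0.00051, SD, n = 3 each). Of 20 aminoacyl-tRNA synthetases, which charge tRNAs and many of which are ATF4 targets, 11 were higher and 0 lower (median 0.12). Cars, Aars and Gars rose by 0.35, 0.21 and 0.18 on the log2 scale (adjusted p = 0.0015, 0.00365 and 0.00695), and another gene on the same strand covers 14.3% of the exon bases of Aars.

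Around the ATF6 arm genes moved in both directions. The lists that follow had 66.7%, 65.4% and 45.2% of genes called, in that order, against 46.9% of all tested genes. Of 6 ATF6 relatives and proteases 2 were higher and 2 lower (median −0.02). Creb3l1, a membrane-bound factor of the same design that drives collagen secretion, had 19.5, 19.6 and 18.9 FPKM in siEzh2 samples and 35.3, 35.2 and 36.0 in controls. It fell by 0.84 on the log2 scale (adjusted p = 4.02e-05), more than any of the 32 genes. Creb3 fell by 0.39 (adjusted p = 0.000404, with 20.8% antisense overlap of exon bases), and Mbtps1, the site-1 protease that cuts ATF6, rose by 0.36 (adjusted p = 0.00048). Of 26 other folding enzymes 9 were higher and 8 lower (median 0.03). Ero1l, the oxidase that recharges disulfide isomerases, had 25.5 ± 0.579 FPKM in siEzh2 and 14.9 ± 0.134 FPKM in controls (0.74, adjusted p = 5.15e-05), while Tmx1, a membrane-bound relative of the isomerases, had 14.3 ± 1.03 and 27.0 ± 1.09 FPKM (−0.87, adjusted p = 0.000169, SD, n = 3 each). Cnpy2, a saposin-like protein of the same compartment, had 26.6 ± 0.575 FPKM in siEzh2 and 37.1 ± 0.399 FPKM in controls (−0.46, adjusted p = 0.000194, SD, n = 3 each). Of 31 translocation and signal peptide genes 6 were higher and 8 lower (median −0.04), among them Ssr1, which rose by 0.32 (adjusted p = 0.00139), and Spcs1 and Srpr, which fell by 0.32 and 0.23 (adjusted p = 0.00186 and 0.0022). An antisense gene overlaps 16.3% of the exon bases of Spcs1.

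Around the IRE1-XBP1 arm the degradation genes were mostly lower. Called were 66.7% of these, 42.9% of the messages cut by IRE1 and 40.0% of the partners of IRE1. Among all tested genes 46.9% were called, with 24.1% higher and 22.7% lower. Of 24 other degradation genes 1 was higher and 15 lower (median −0.17). Ube2g2, a ubiquitin-conjugating enzyme, had 36.7, 35.9 and 34.8 FPKM in siEzh2 samples and 50.5, 53.6 and 50.4 in controls (log2 fold change −0.51, adjusted p = 0.000282), with 10.3% of its exon bases shared with other genes on its strand. Fam8a1, which helps assemble the HRD1 complex, fell by 0.44 (adjusted p = 0.00133), and Ufd1, a cofactor of the extracting ATPase, by 0.28 (adjusted p = 0.000928). The 1 gene that rose, Aup1, is uncertain because an antisense gene covers 23.0% of its exon bases and its call was lost without siEzh2 samples 1 or 3 or control sample 1 (adjusted p up to 0.0654), and was named after its value was seen. Of 7 messages known to be cut by IRE1 in other mouse cells 0 were higher and 3 lower (median −0.08). These were Pmp22, Sparc and Col6a1, which fell by 0.88, 0.40 and 0.37 (adjusted p = 6.11e-05, 0.000269 and 0.000872). They encode a myelin and membrane protein, a matrix protein and a collagen chain. Of the 5 tested partners of IRE1, the RNA ligase gene Rtcb rose by 0.14 (adjusted p = 0.0175, lost in 4 of 12 alternatives, including without siEzh2 sample 2 or control samples 2 or 3, adjusted p up to 0.0594) and its archease cofactor Zbtb8os fell by 0.34 (adjusted p = 0.0111). Traf2, Map3k5 and Mapk8, the kinase branch of IRE1, had log2 fold changes of −0.05, 0.19 and 0.02 (adjusted p = 0.361, 0.0651 and 0.814), and Map3k5 passed, as higher, without siEzh2 sample 1 (adjusted p = 0.0197) and with limma-voom (0.0348).

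**Figure D5:**
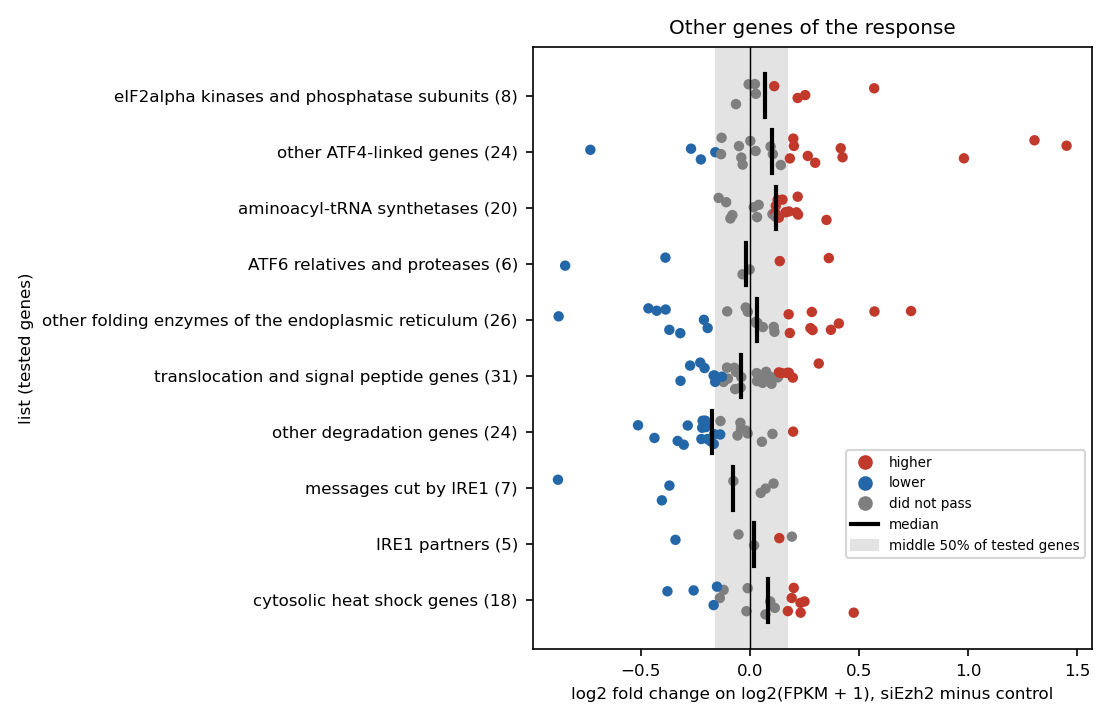
Each point is 1 tested gene of a list, placed by its log2 fold change on log2(FPKM + 1), siEzh2 minus control; black bars are list medians, the grey band is the middle 50% of all tested genes, and the number of tested genes stands beside each list. The aminoacyl-tRNA synthetases lie mostly right of 0 (median 0.12) and the other degradation genes mostly left of it (median −0.17).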

How the data were processed

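The authors deposited 1 table of FPKM per sample, named as such per the file headers. Trimmomatic, HISAT2, Cufflinks, HTSeq and the build mm10 are named, without versions, per the submitters' processing notes; libraries were stranded (TruSeq), per the labels. A gene was tested if either group averaged at least 1 FPKM. The test was limma 3.58.1 (R 4.3.3) on log2(FPKM + 1) without covariates, with calls at a Benjamini-Hochberg adjusted p under 0.05 over 11869 genes. A log2 fold change on this scale understates the change of low genes, while ratios and SDs are of FPKM. Reads were recovered from the FPKM steps and GENCODE M21 exon lengths. Of values under 1000 reads 98.4% to 98.5% came out whole within 0.02 of a read. Gene coordinates and exon overlaps are from GENCODE M21, promoters from RefSeq. Python 3.11.15 did the rest, and the test was tried on simulated data. No sample was a copy of another (chi-square per degree of freedom of reads 2.14 to 3.29 within groups, 27.9 to 30.0 between). Alternatives were a pseudocount of 0.1, no filter, quantile normalization, a replicate block, trend and robust settings on, limma-voom on recovered reads, and leaving out each sample. Members, arms and lists were chosen with earlier results of these data known. All members are named, and in each list the 3 tested genes with the smallest p, or all tested genes where there are up to 5; the mitochondrially encoded genes are given by their sum and count.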

Additional observations from a re-analysis of the deposited data

How the results depend on the processing

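Among the members, Ezh2 and the named genes of the lists, no direction of a called gene reversed under the 12 alternatives. Other genes were not checked for this. Whether the replicate numbers pair the samples is not given and cannot be settled here. Same-numbered samples correlated at only 0.024 to 0.07, and differently numbered ones at −0.062 to 0.022. Yet 6 of 6 samples correlated best with their own number. With the replicate block, 6 members were higher and 7 lower (8 and 11 without it), of which 1 sensor and 3 ATF6 genes were lower and 0 ATF6 genes higher. Without the filter 1 sensor was lower. With trend and robust on, 9 members were higher and 15 lower, among them 1 PERK-ATF4 gene lower and 2 IRE1-XBP1 genes higher. On recovered reads limma-voom called 10 members higher and 15 lower. Among these were 1 PERK-ATF4 gene lower, 2 ATF6 genes higher and 2 IRE1-XBP1 genes higher. Both settings also called Pdia3, Pdia4 and Sel1l of the ATF6 arm lower. Quantile normalization moved the median log2 fold change to −0.16 in sensors and −0.070 in the ATF6 arm. The cause of these shifts was not tested. Leaving out 1 sample gave 4 to 7 members higher and 6 to 8 lower: in sensors 0 to 1 and 1 to 2, in the PERK-ATF4 arm 3 to 4 and 0, in the ATF6 arm 0 to 1 and 3 to 5, and in the IRE1-XBP1 arm 1 to 2 and 2 to 3. It gave 2309 to 2516 genes higher and 2156 to 2345 lower over all genes, 32 to 38 and 32 to 39 over the other lists, and medians of −0.16 to −0.12, 0.10 to 0.13, −0.12 to −0.079 and −0.11 to −0.051 in these 4 sets.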

Other observations

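The list of cytosolic heat shock genes, which answer misfolding outside the endoplasmic reticulum and among which a few mitochondrial chaperones were counted, moved in both directions: of 18 tested, 7 were higher and 4 lower in siEzh2 samples (median log2 fold change 0.08). The share called was 61.1%, against 46.9% of all tested genes, of which 24.1% were higher and 22.7% lower. Hspd1, the mitochondrial chaperonin, had 108 ± 3.18 FPKM in siEzh2 and 77.2 ± 0.738 FPKM in controls (log2 fold change 0.48, adjusted p = 0.000232, limma with Benjamini-Hochberg adjustment). Hsp90ab1, a cytosolic HSP90, had 595 ± 9.45 and 507 ± 5.38 FPKM (0.23, adjusted p = 0.00206), while Hsp90b1, the HSP90 of the endoplasmic reticulum, fell. Hspb1, a small heat shock protein, had 148 ± 7.07 and 193 ± 1.55 FPKM (−0.38, adjusted p = 0.00102, SD, n = 3 each).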
